A study of Saccharomyces cerevisiae with 12 samples.

Results

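Yeast carrying the W81A form of Taf14 on a plasmid was compared with yeast carrying normal TAF14 on the same plasmid, to ask which transcripts differ when the histone-reading pocket of the protein is changed. Both groups derive from BY4741, a haploid laboratory strain of mating type a, and both lack the chromosomal TAF14 gene, so the plasmid is their source of Taf14. The plasmid is a pRS313, a low-copy centromeric vector with the HIS3 marker, and the labels give HA3-SSN6 as part of its name in every group, the empty vector included. The TAF14 strain carries pRS313-TAF14-HA3-SSN6, labelled full length, and the W81A strain carries pRS313-taf14W81A-HA3-SSN6. The comparison used 6 of the study's 12 libraries, 3 for each group, chosen by genotype and plasmid labels. The other 6 libraries are wild type BY4741 and the taf14 deletion strain, 3 each, both with the empty vector, and their levels are given for orientation. No drug or stress is named in the labels, and whether the replicates of a group were separate cultures or transformants is not stated, so p-values measure the spread between these libraries. The promoter that drives the insert is not given in the sources used here.

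Taf14 is a small shared subunit of several transcription and chromatin complexes, among them the general factors TFIID and TFIIF, the remodellers SWI/SNF, RSC and INO80, and the histone acetyltransferase complex NuA3. Its YEATS domain holds an aromatic pocket that reads acylated lysines on the tail of histone H3, and the tryptophan at position 81 is part of that pocket. W81A, the change of this tryptophan to alanine, was made to abolish binding to acetylated H3, per the study's design text.

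The place of the change is shown because it defines the comparison. Codon 81 of TAF14 (YPL129W) lies in the second of 2 exons, in coding sequence, at chrXVI:305643-305645 on the plus strand of build R64 (sacCer3). The chromosomal sequence around it, chrXVI:305619-305669, has the tryptophan codon in capitals.
TAF14 codon 81 window: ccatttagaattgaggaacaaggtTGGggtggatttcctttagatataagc
The codon that replaces it on the plasmid was not analysed here.

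The libraries were rRNA-depleted total RNA and held 9007715 to 11662085 counts, and levels are given as CPM, a gene's counts relative to the scaled size of its library. TAF14 was read first. The TAF14 strain had 355, 143 and 302 CPM in replicates 1, 2 and 3, the W81A strain had 223, 203 and 192, wild type had 136 ± 10.4 (SD, n = 3) and the deletion strain had 0.373 ± 0.153. Replicate 2 of the TAF14 strain was below every W81A library and the other replicates were above them, so the groups overlapped. SPO19, the gene next to TAF14 on its upstream side, had 122, 40.4 and 107 CPM in the TAF14 strain and 64.4, 57.9 and 60 in the W81A strain, against 0.888 ± 0.222 for wild type and 2.94 ± 0.14 for the deletion strain. Whether the insert includes SPO19 is not given in the sources used here. HIS3, the plasmid marker, had 1187, 557 and 1052 CPM and 641, 645 and 671 CPM, against 297 ± 25.9 for wild type and 630 ± 91.5 for the deletion strain. The W81A libraries and TAF14 replicate 2 lay within the deletion strain's range of 533.5 to 715.6 CPM, and TAF14 replicates 1 and 3 above it. All 3 genes had their lowest TAF14 strain value in replicate 2. TBF1, the neighbour on the other side, had 69.7 to 76 CPM in the TAF14 strain and 67.9 to 85.6 in the W81A strain, and CYC8, another name of SSN6, had 137 to 157 and 139 to 159.

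With all libraries, the W81A change in TAF14 transcript was not called (log2 fold change -0.37 ± 0.23, adjusted p = 0.232), and neither were those of SPO19 (-0.56 ± 0.27, adjusted p = 0.135) and HIS3 (-0.51 ± 0.20, adjusted p = 0.0702). Without TAF14 strain replicate 2, all 3 were called lower in the W81A strain (TAF14 -0.67 ± 0.08, SPO19 -0.92 ± 0.08 and HIS3 -0.78 ± 0.10). Without TAF14 strain replicate 1 instead, the changes of these 3 genes were -0.10, -0.26 and -0.29 and not called. Replicate 2 was left out partly because of its low plasmid expression. The calls of these 3 genes without it therefore follow from that choice and are not a test. The size of these differences depended on 1 library, and their part in the differences reported below was not tested. The a-cell markers MFA1, MFA2, STE2, STE6 and BAR1 were read in all 6 libraries. LEU2, URA3 and MET17, which BY4741 lacks, had 0 counts throughout, which allows at most 0.327 CPM.

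Across the genome, 1954 of 5918 tested genes (33%) differed between the strains at an adjusted p below 0.05 in edgeR's quasi-likelihood test. In the W81A strain 938 genes (15.8%) were higher and 1016 (17.2%) lower, with a median log2 fold change of 0.00046 over all tested genes. Most changes were small. The median size of a called change was 0.40 on the log2 scale (0.39 without TAF14 strain replicate 2), and the 5th and 95th percentiles of all tested genes were -0.68 and 0.51. Changes of at least 2-fold were called for 64 higher genes (1.08%) and 136 lower genes (2.3%), and changes of at least 4-fold for 8 and 33. Without TAF14 strain replicate 2, 1062 genes were higher (17.9%) and 1087 lower (18.3%) of 5946 tested, 82 (1.38%) and 156 (2.62%) of them by at least 2-fold and 13 and 50 by at least 4-fold. In either direction together, 36.1% were then called. Of the calls with all libraries, 88.3% of the higher and 90.5% of the lower genes were also called without that library, and of the calls without it, 78.0% and 84.5% were also called with all libraries. No gene was called in opposite directions. Leaving out that library moved the counts of 4-fold changes by more than 1.5 times. With all 6 libraries, the W81A values lay wholly above or wholly below the TAF14 values in 2716 genes (45.9%). Among the genes named below with a change, the groups overlapped in GPH1, PIR3, INH1, ZRT1, KAR2, MF(ALPHA)1, SAG1 and STE3, and in the others they did not.

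**Figure D1:**
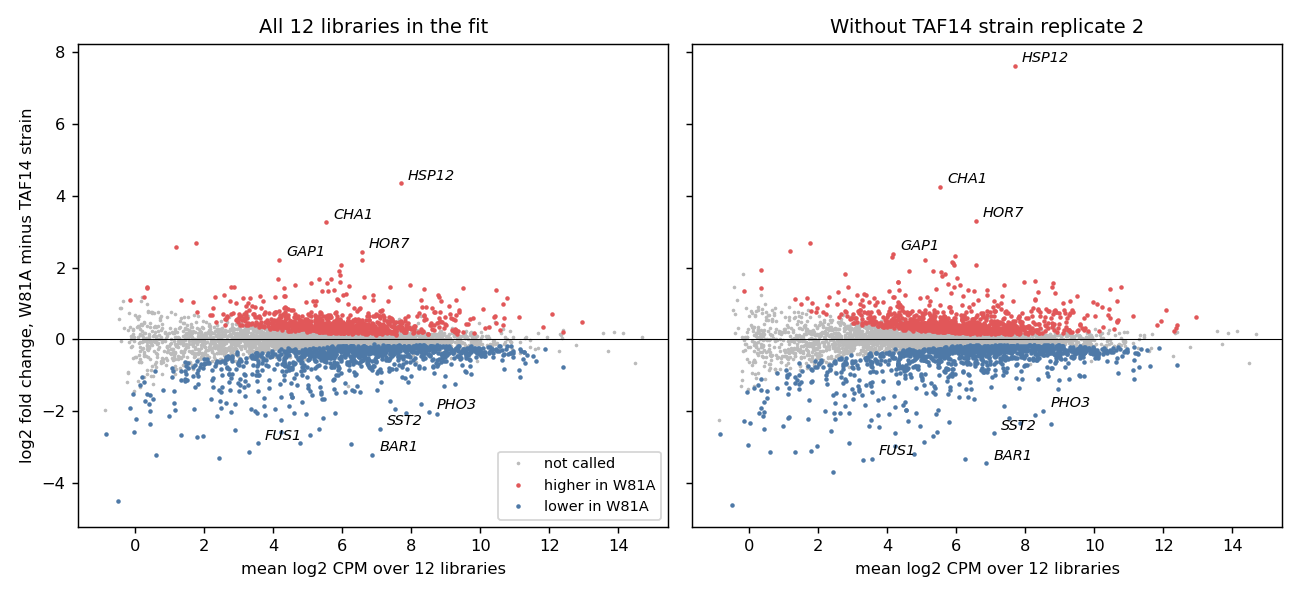
Log2 fold change from the TAF14 to the W81A strain for each tested gene (vertical axis) against its mean log2 CPM over 12 libraries (horizontal axis), with all libraries (left) and without TAF14 strain replicate 2 (right). Red points were called higher and blue points lower at adjusted p below 0.05, and HSP12 moved from 4.35 to 7.62 between the panels.

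Replicate 2 of the TAF14 strain also stood apart by chromosome. Its chromosome XII genes had a median log2 difference of 0.55 from wild type, while the other 5 libraries of the comparison lay between 0.0069 and 0.0246 for this chromosome. Its mitochondrially encoded genes read 0.27 by the same measure, against -0.20 and -0.25 in replicates 1 and 3, and the W81A libraries spread from -0.39 to 0.22. With all libraries, 8 of 471 tested genes on chromosome XII were called higher in the W81A strain and 127 lower, with a median change of -0.20. Without replicate 2, 88 were higher and 96 lower, with a median of 0.01. The other 15 nuclear chromosomes had medians between -0.0136 and 0.0442 with all libraries. Counts of chromosome XII genes therefore rest on that library, and each one named below is given with and without it. Leaving chromosome XII out of the fit gave 855 higher and 1005 lower genes elsewhere.

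**Figure D2:**
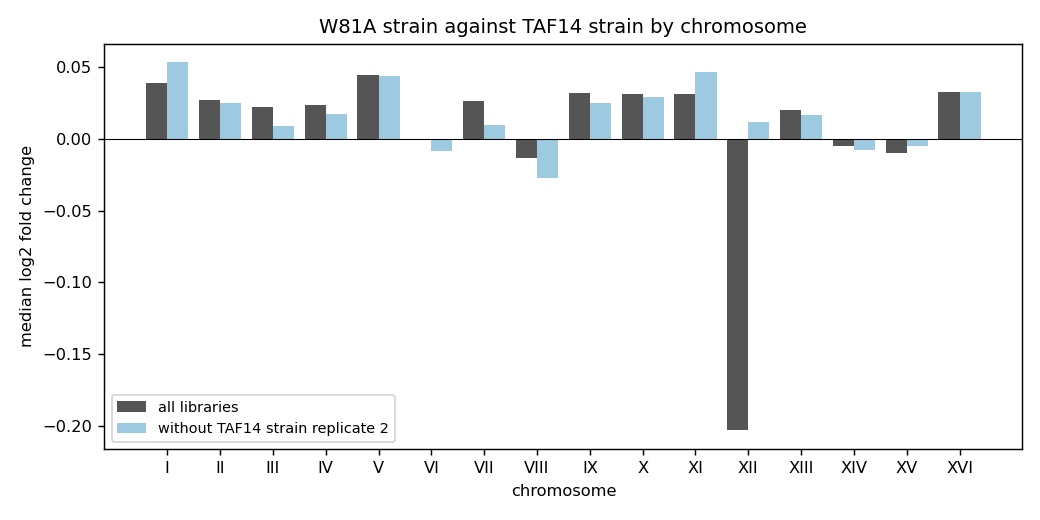
Median log2 fold change from the TAF14 to the W81A strain for the tested genes of each nuclear chromosome, with all libraries (dark) and without TAF14 strain replicate 2 (light). Chromosome XII is at -0.20 with all libraries and at 0.01 without that library.

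Replicate 2 was also compared with the rest away from chromosome XII. Of the 81 genes outside chromosome XII called at least 2-fold higher without replicate 2, 69 (85.2%) had replicate 2 displaced from the mean of replicates 1 and 3 in the direction of the W81A strain. The median displacement was 0.45 on the log2 scale, where the W81A strain was displaced by 1.31. Among the 136 such lower genes, 113 (83.1%) were displaced toward the W81A strain, by a median of -0.66 against -1.48. Both displacements subtract the same mean of 2 libraries, so part of their agreement in sign is built in, and the counts are a description. The 15 largest rises and 15 largest falls given below were ranked without replicate 2 and had to have groups that do not overlap, which largely fixes the place of replicate 2 in them.

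**Figure D3:**
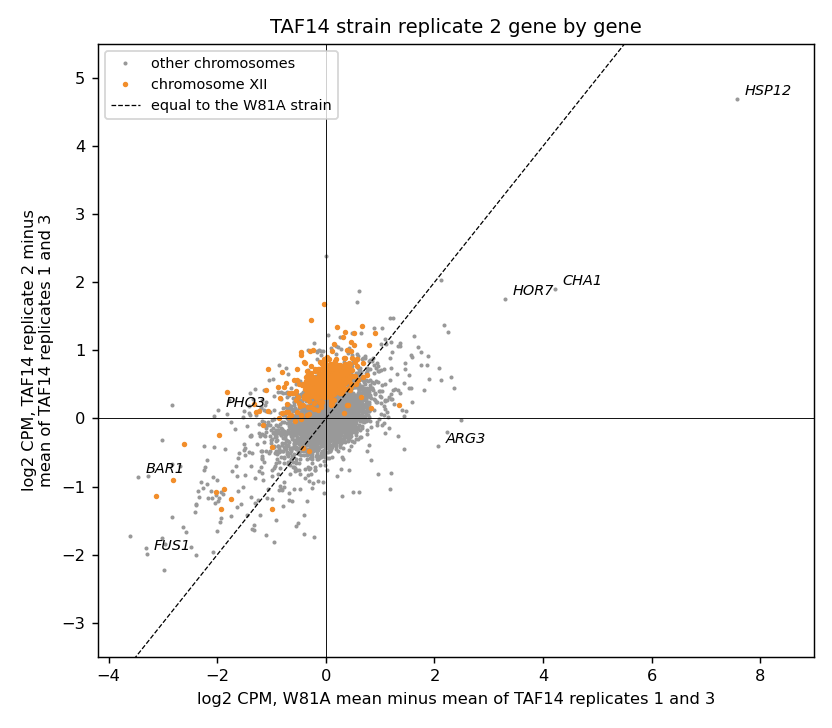
Displacement of TAF14 strain replicate 2 from the mean of replicates 1 and 3 (vertical axis) against that of the W81A strain mean (horizontal axis), in log2 CPM, 1 point per tested gene, with chromosome XII genes in orange. HSP12, CHA1, HOR7, BAR1 and FUS1 lie between no displacement and the dashed line of equality with the W81A strain, and the orange points form a cloud above 0.

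Mating genes were prominent among the largest falls in the W81A strain, and BAR1, FUS1, MFA1, SST2, AGA2 and AGA1 were 6 of the 15 largest. In haploid a cells, the receptor Ste2 senses alpha-factor and passes the signal through a G protein and a kinase cascade to the transcription factor Ste12, which acts on genes for agglutination, fusion and desensitisation. Of 20 tested genes for pheromone signalling, 0 were higher, 11 lower and 9 not called (55% called, against 33% of all tested genes), with a median of -0.56. Of 26 tested genes for a-factor, the mating cell surface and fusion, 1 was higher, 17 lower and 8 not called (69.2% called), with a median of -0.57. Without TAF14 strain replicate 2 the counts were 0 higher and 12 lower, and 1 and 17. In bulk RNA, fewer cells of a type and less RNA per cell cannot be told apart.

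BAR1 (YIL015W, chrIX:322342-324105), for the secreted protease that degrades alpha-factor, had 451, 252 and 462 CPM in TAF14 strain replicates 1, 2 and 3 and 38.9, 40.9 and 44.9 in the W81A strain. The W81A libraries were all below the lowest TAF14 library, and the change was -3.22 ± 0.18, adjusted p = 1.98e-07, or -3.46 ± 0.06 without replicate 2. Wild type had 322 ± 5.23 CPM and the deletion strain 36.3 ± 1.55. FUS1 (YCL027W, chrIII:71803-73341), for a membrane protein of the fusing cell tip, had 44, 11 and 44.3 CPM against 4.62, 3.18 and 5.39, with replicate 2 the lowest TAF14 library but still above the W81A libraries (-2.89 ± 0.45, adjusted p = 0.000374; -3.32 ± 0.16 without replicate 2). MFA1 (YDR461W, chrIV:1385176-1385286), an a-factor gene, had 98.7, 66.5 and 113 CPM against 15.2, 14.4 and 14.4 (-2.66 ± 0.18), while the second a-factor gene, MFA2, had 216, 258 and 216 against 160.3, 144 and 164 (-0.56 ± 0.09). Both fell, and neither had overlapping groups.

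The promoters of FUS1 and BAR1 are shown because each holds copies of TGAAACA, the pheromone response element that Ste12 binds. Each sequence is the plus strand of R64 from 300 to 101 bases before the start codon, with TGAAACA in capitals.
FUS1, chrIII:71503-71702: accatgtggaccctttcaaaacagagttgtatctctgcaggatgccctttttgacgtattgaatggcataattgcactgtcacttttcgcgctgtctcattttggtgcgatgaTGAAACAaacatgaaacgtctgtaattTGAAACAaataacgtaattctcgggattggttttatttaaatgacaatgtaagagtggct
BAR1, chrIX:322042-322241: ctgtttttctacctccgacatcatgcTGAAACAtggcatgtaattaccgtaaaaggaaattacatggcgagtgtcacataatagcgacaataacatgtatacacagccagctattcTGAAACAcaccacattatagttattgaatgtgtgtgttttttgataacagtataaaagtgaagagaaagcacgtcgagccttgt
In FUS1 the matches begin 187 and 160 bases before the start codon, and in BAR1 274 and 184 bases before it. TGAAACA or its reverse complement TGTTTCA was found in the 300 bases before the start codon of 7.22% of 5987 genes. Among the 28 called-lower genes of both mating lists, 15 (53.6%) held it, among them AGA1, AGA2, FUS3, PRM1, SST2, STE2, STE6 and TEC1. The mating lists hold genes on which Ste12 acts, and the share among their members not called was not counted. The 53.6% therefore does not bear on which mating genes fell. Of the 118 genes lower by at least 2-fold in both fits, 12.7% held it, and of the 61 such higher genes 4.92%.

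Among the signalling genes, the receptor gene STE2 had 768, 669 and 833 CPM in the TAF14 strain and 410.2, 368 and 405 in the W81A strain (-0.94 ± 0.08, adjusted p = 3.87e-06). SST2 (YLR452C, chrXII:1039270-1041366), whose product turns the G protein off and which lies on chromosome XII, had 364, 281 and 368 against 57, 57.1 and 65.3 (-2.50 ± 0.11, adjusted p = 2.54e-08; -2.61 ± 0.08 without replicate 2). FAR1, for the inhibitor that arrests the cell cycle in mating, had 392, 290.3 and 402 against 108, 107 and 112 (-1.73 ± 0.10). TEC1, for a partner of Ste12 in filamentous growth, had 137, 93 and 126 against 45.5, 40.5 and 43.5 (-1.46 ± 0.13). In none of these 4 genes did the groups overlap. On the cell surface, AGA2 and AGA1, for the binding and anchoring subunits of a-agglutinin, changed by -2.08 ± 0.26 and -1.60 ± 0.34. AFR1, which acts in projection formation, changed by -1.54 ± 0.12, with 56.4, 59.5 and 53.4 CPM against 17, 23.2 and 18.1, and in this gene replicate 2 was the highest library. STE6, for the a-factor exporter, had 784, 625 and 810.1 against 358, 361 and 372 CPM (-1.02 ± 0.08). Of the markers of the opposite cell type, alpha, 0 of 4 tested were called with all libraries. The TAF14 and W81A strains had 0.182 to 0.433 and 0 to 0.2 CPM of MF(ALPHA)1, 3.63 to 5.13 and 4.45 to 5.33 of STE3, 23 to 31.1 and 23.4 to 27.4 of SAG1, and 3.9 to 5.97 and 3.18 to 3.59 of MF(ALPHA)2. MF(ALPHA)2 was called lower without replicate 2 (-0.60 ± 0.20, adjusted p = 0.0295).

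Outside the mating lists, PRM7 and BSC1, neighbours on chromosome IV, were higher in the TAF14 strain than in any other group. PRM7, a pheromone-regulated membrane protein gene, had 623, 139 and 431 CPM against 47.1, 52.8 and 57.4 (-2.92 ± 0.39, adjusted p = 0.000129), with 53.4 ± 11.8 CPM in wild type and 37.3 ± 3.61 in the strain without TAF14. BSC1 had 133, 30.8 and 92.1 against 11.4, 14.6 and 16.8 (-2.57 ± 0.41, adjusted p = 0.000438), with 15 ± 3.93 in wild type. For both, every TAF14 library was above every library of the other 3 groups. FRE4, for a ferric reductase, showed the same pattern, with 71.2, 24 and 67.3 CPM against 15.7, 19.2 and 18.5 (-1.60 ± 0.30) and 18.4 ± 0.707 in wild type. MMP1, the S-methylmethionine permease gene on chromosome XII, had 45.6, 21.2 and 42.1 CPM against 11.2, 12 and 12.5 (-1.60 ± 0.25; -1.88 ± 0.15 without replicate 2) and 16.9 ± 4.07 in wild type.

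PHO3, YHB1, OPT1, MOR1 and SER3 were also among the 15 largest falls. PHO3 (YBR092C, chrII:427698-429101), for a constitutive acid phosphatase, had 804, 891 and 838 CPM in the TAF14 strain and 199.5, 199.9 and 223 in the W81A strain (-2.03 ± 0.07, adjusted p = 1.03e-09; -1.98 ± 0.06 without replicate 2). Its replicate 2 was the highest TAF14 library. YHB1 (YGR234W, chrVII:959904-961103), for the flavohaemoglobin that detoxifies nitric oxide, had 489, 227 and 522 against 102, 101 and 97.2 (-2.04 ± 0.23, adjusted p = 3.09e-05). OPT1 (YJL212C, chrX:33850-36249), for a glutathione and oligopeptide transporter, had 139, 70.7 and 132 against 26.2, 29.2 and 26.3 (-2.06 ± 0.20, adjusted p = 1.35e-05). MOR1 (YDR366C) had 1423, 673 and 1401 CPM against 269, 255 and 309.5 (-2.07 ± 0.26, adjusted p = 6.93e-05). In YHB1, OPT1 and MOR1 replicate 2 lay between the other TAF14 libraries and the W81A libraries. Their wild type levels were 443 ± 28.4, 61.9 ± 5.62 and 656 ± 107 CPM. SER3, for a phosphoglycerate dehydrogenase of serine synthesis, had 669, 299 and 667 against 151, 157 and 160.1 (-1.80 ± 0.23), but it overlaps the noncoding gene YNCE0017W, and its reads are uncertain because the strand setting of the counting is not stated. Wild type had 154 ± 21.1 CPM of SER3, near the W81A strain, and the deletion strain had 770 ± 49.1. GSH1, for the first enzyme of glutathione synthesis, had 154, 88.5 and 155 CPM against 74.1, 63.9 and 66.9 (-0.95 ± 0.17), and OYE2, for an NADPH oxidoreductase, 653, 475 and 695 against 332, 369 and 362 (-0.78 ± 0.12). Both fell.

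**Figure D4:**
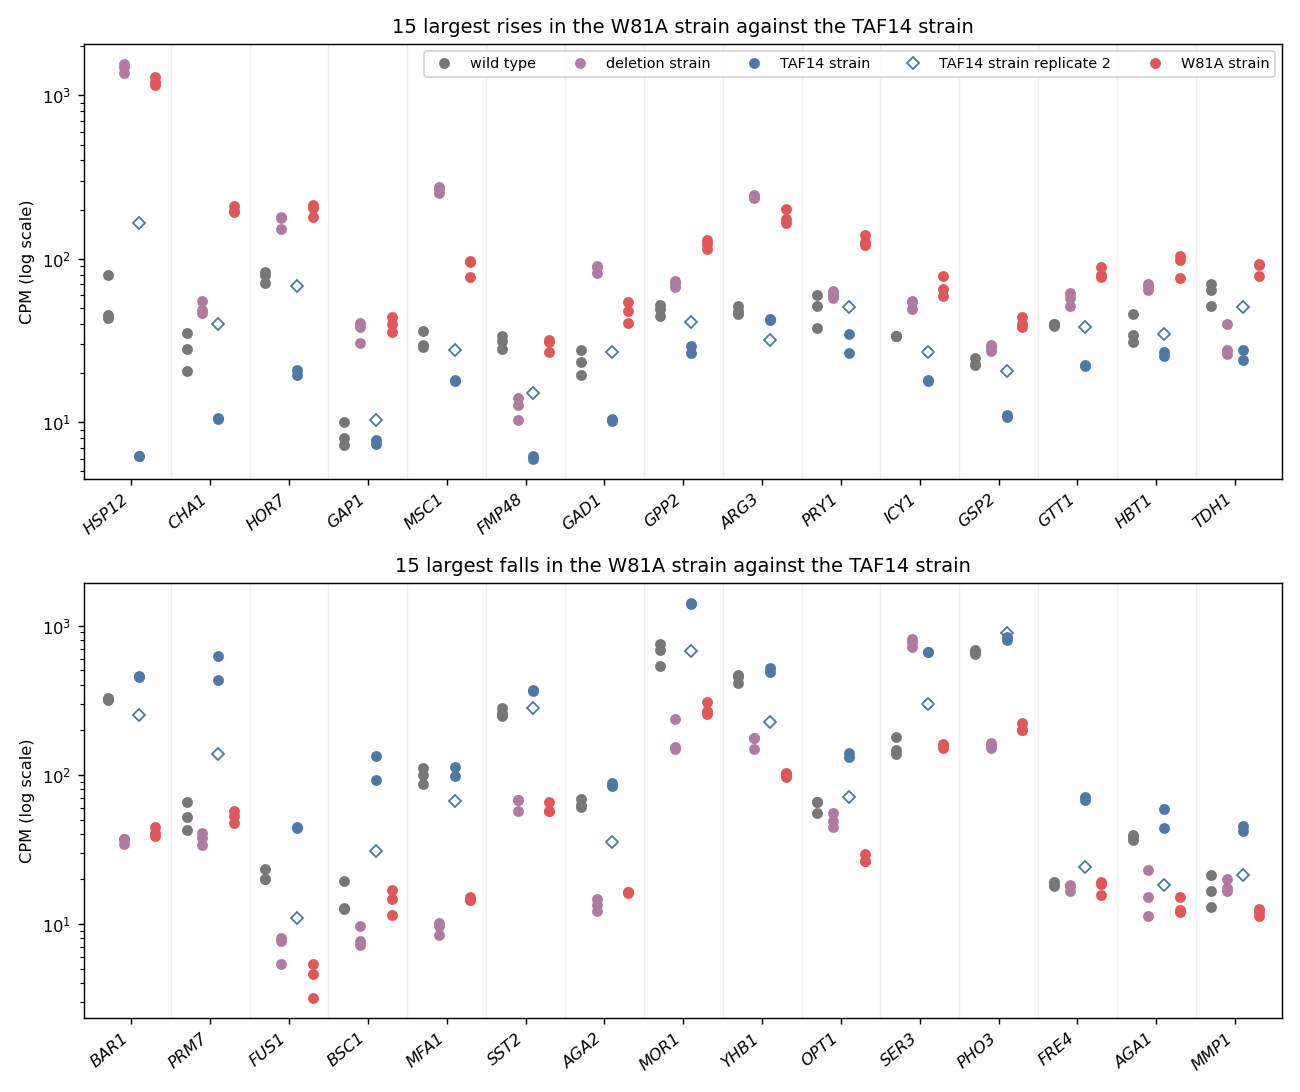
CPM on a log scale, 1 point per library in all 4 groups, for the 15 genes with the largest rises (top) and the 15 with the largest falls (bottom) from the TAF14 to the W81A strain. Open diamonds are TAF14 strain replicate 2, whose place is largely fixed by the choice of genes with groups that do not overlap, ranked without that library. HSP12 has 6.18, 164 and 6.18 CPM in the TAF14 strain.

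Of the genes named, HSP12 had the largest rise. HSP12 (YFL014W, chrVI:107256-107585), for a small membrane-protecting stress protein, had 6.18, 164 and 6.18 CPM in TAF14 strain replicates 1, 2 and 3 and 1211, 1151 and 1299 in the W81A strain. Replicate 2 was far above the other TAF14 libraries and below all W81A libraries, and the change was 4.35 ± 0.87, adjusted p = 0.00222, or 7.62 ± 0.26, adjusted p = 4.68e-11 without it. Wild type had 56.1 ± 20 CPM and the deletion strain 1476 ± 92.5. HOR7 (YMR251W-A, chrXIII:774752-774931), a small gene induced by high osmolarity, had 19.5, 68.5 and 20.8 against 215, 182 and 205 (2.45 ± 0.34, adjusted p = 0.000153; 3.32 ± 0.11 without replicate 2). MSC1 had 17.9, 27.5 and 18.1 against 96.8, 77.4 and 95.6 (2.08 ± 0.15, adjusted p = 8.92e-07). Both genes kept the W81A libraries above every TAF14 library. HOR7 had 77.9 ± 5.91 CPM in wild type and MSC1 had 31.5 ± 4, above TAF14 replicates 1 and 3 in both.

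The HSP12 promoter is shown because it holds the stress response element AGGGG, the site of the paired activators Msn2 and Msn4, which reads CCCCT on the strand shown. The sequence runs from 300 to 101 bases before the start codon, with CCCCT in capitals.
HSP12, chrVI:106956-107155: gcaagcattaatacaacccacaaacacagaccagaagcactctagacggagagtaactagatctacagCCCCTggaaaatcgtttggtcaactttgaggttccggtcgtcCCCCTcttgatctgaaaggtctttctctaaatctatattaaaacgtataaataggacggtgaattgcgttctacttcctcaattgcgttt
The matches begin 232 and 190 bases before the start codon. AGGGG or CCCCT was found in the 300-base window of 22.2% of 5987 genes, in 27 of the 61 genes (44.3%) higher by at least 2-fold in both fits and in 16 of the 118 (13.6%) such lower genes. Among the 15 largest rises, 9 held it: GAD1, GPP2, GSP2, GTT1, HBT1, HOR7, HSP12, MSC1 and TDH1.

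Of 26 tested general stress genes, 11 were higher, 1 lower and 14 not called (46.2% called), with a median of 0.21, or 0.36 without replicate 2. DDR2, a multistress gene, had 0.942, 0.545 and 0.433 CPM against 4.21, 2.96 and 4.39 (2.57 ± 0.28), and PAI3, for a protease inhibitor, 3.45, 3.99 and 3.36 against 9.13, 7.62 and 8.69 (1.23 ± 0.17). Neither pair of groups overlapped. Of 19 osmotic response genes, 4 were higher and 2 lower (31.6% called, near the 33% of all genes), and the number lower was 3 without TAF14 strain replicate 3 and 1 without W81A strain replicate 3. The higher ones included GPP2 (YER062C, chrV:279930-280682), for the phosphatase that makes glycerol, with 29.4, 41.3 and 26.4 CPM against 114, 123 and 130 (1.91 ± 0.13, adjusted p = 5.16e-07), and DAK1, for a dihydroxyacetone kinase (0.42 ± 0.08). PRY1, for a secreted sterol-binding protein, had 34.6, 50.8 and 26.5 against 127, 121 and 140.2 (1.79 ± 0.19), and SLN1, the osmosensor gene, rose by 0.34 ± 0.06. Levels of GPP2 and PRY1 in wild type were 48.8 ± 3.98 and 49.9 ± 11.2 CPM. Of 26 oxidant defence genes, 6 were higher and 4 lower (38.5% called, near the 33% of all genes), with the mitochondrial thioredoxin reductase gene TRR2 (0.69 ± 0.08) and the glutaredoxin gene GRX1 (0.41 ± 0.07) among the rises.

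Further large rises were in genes of varied function. GAD1, for glutamate decarboxylase, had 10.4, 26.9 and 10.2 CPM in the TAF14 strain and 48, 40.5 and 54.5 in the W81A strain (1.57 ± 0.28, adjusted p = 0.000948; 2.21 ± 0.16 without replicate 2). GSP2, for a Ran-type GTPase, had 11.1, 20.7 and 10.7 against 40.2, 38.1 and 43.8 (1.51 ± 0.18), and GTT1, for a glutathione transferase, 22.3, 38.3 and 22.1 against 77.5, 79.3 and 88.9 (1.56 ± 0.16). TDH1, a glyceraldehyde-3-phosphate dehydrogenase isoform gene, had 24.2, 50.9 and 27.5 against 78, 92.1 and 92.8 (1.35 ± 0.23). In all 4, replicate 2 was the highest TAF14 library and stayed below the W81A libraries. Levels in wild type were 23.4 ± 4.02 CPM for GAD1, 23.2 ± 1.27 for GSP2, 39.5 ± 0.736 for GTT1 and 62 ± 9.42 for TDH1. TAF14 replicates 1 and 3 were below every wild type library in these 4 genes, so the rises are larger against these libraries than against wild type. ICY1, HBT1 and FMP48 rose by 1.68 ± 0.14, 1.68 ± 0.16 and 1.69 ± 0.25 (1.91 ± 0.12, 1.84 ± 0.16 and 2.29 ± 0.15 without replicate 2). The FMP48 level was 31 ± 2.74 CPM in wild type, 5.96 to 15 in the TAF14 strain and 26.9 to 31.7 in the W81A strain.

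Genes for amino acid breakdown, uptake and nitrogen use moved in both directions. CHA1 (YCL064C, chrIII:15798-16880), for the deaminase that breaks down serine and threonine, had 10.4, 39.9 and 10.6 CPM against 197, 209.5 and 193 (3.27 ± 0.36, adjusted p = 3.09e-05; 4.25 ± 0.17 without replicate 2). GAP1 (YKR039W, chrXI:515063-516871), for the general amino acid permease, had 7.33, 10.3 and 7.8 against 39.7, 44 and 35.5 (2.21 ± 0.16, adjusted p = 8.92e-07), and its wild type level was 8.47 ± 1.49. AGP1 and PTR2, for an amino acid and a peptide permease, rose by 1.17 ± 0.10 and 0.97 ± 0.11, and of 30 permease genes 7 were higher and 7 lower (46.7% called). GLN1 (YPR035W, chrXVI:642208-643320), for glutamine synthetase, had 1138, 1291 and 1126 against 2360.2, 2457 and 2284 (1.0 ± 0.07, adjusted p = 9.41e-07). GDH1 and GLT1, for glutamate dehydrogenase and glutamate synthase, fell (-0.74 ± 0.08 and -0.46 ± 0.06), and GCN4, for the activator of amino acid synthesis genes, rose (0.69 ± 0.10, 478, 498 and 415 CPM against 696, 757 and 788).

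The GAP1 promoter is shown because it holds GATAAG, the site of the nitrogen regulators of the GATA family, on both strands (CTTATC is the reverse complement). Capitals mark both, in the window from 300 to 101 bases before the start codon.
GAP1, chrXI:514763-514962: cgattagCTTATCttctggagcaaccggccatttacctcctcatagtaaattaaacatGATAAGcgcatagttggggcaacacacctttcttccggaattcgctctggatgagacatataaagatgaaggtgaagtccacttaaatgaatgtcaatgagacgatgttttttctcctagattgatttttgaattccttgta
The matches begin 293 and 242 bases before the start codon. GATAAG on either strand was in the 300-base window of 14.7% of 5987 genes, 29.5% of the 61 genes at least 2-fold higher in both fits and 11.9% of the 118 such lower genes. The site of Gcn4, searched as TGACTC on both strands, was in 7.77% of all promoters, 14.8% of those higher and 7.63% of those lower, and in none of the 15 largest rises, ARG3 included. TATAAA was in 48.2%, 65.6% and 60.2% of the same sets, ACGCGT in 3.49%, 1.64% and 0.847%, and CACGTG in 3.56%, 4.92% and 1.69%. No motif searched contains another, and a match describes letters in a window, not binding.

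Most arginine and proline genes rose and most branched-chain genes fell. Of 20 tested arginine and proline genes, 11 were higher, 2 lower and 7 not called (65% called), with a median of 0.34, and the counts were the same without replicate 2. ARG3, for ornithine carbamoyltransferase, had 42.2, 32 and 43 CPM against 165, 200.4 and 176 (2.21 ± 0.10, adjusted p = 3.94e-08), with replicate 2 the lowest TAF14 library. ARG56, for 2 earlier steps made as 1 polyprotein, had 182, 156 and 193 against 427, 477 and 502 (1.41 ± 0.09), and ARG4, for argininosuccinate lyase, 174, 251 and 176 against 421, 518 and 494 (1.25 ± 0.13). ARG8 rose by 0.98 ± 0.08. In branched-chain synthesis 0 were higher, 6 lower and 5 not called of 11 (median -0.25), and 1 higher and 6 lower without replicate 2. LEU1, for isopropylmalate isomerase, had 2733, 2612 and 3027 CPM against 1392, 1151 and 1478 (-1.06 ± 0.09, adjusted p = 3.46e-06), LEU9 changed by -1.05 ± 0.06, and BAT1, the mitochondrial transaminase gene, had 1038, 914 and 1014 against 529.8, 457 and 541 (-0.96 ± 0.07). HIS4, LYS1 and ARO9 of histidine, lysine and aromatic metabolism rose (0.64 ± 0.08, 0.79 ± 0.08 and 1.05 ± 0.11) and ARO4 fell (-0.64 ± 0.08). Sulfur and methionine genes were 4 higher and 10 lower of 28 (50% called), with CYS4, for cystathionine synthase, at -0.90 ± 0.09 and SAM1, on chromosome XII, at -0.55 ± 0.08 (-0.48 ± 0.08 without replicate 2).

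Many respiratory genes were higher in the W81A strain, and more of them so without replicate 2. Of 38 tested nuclear genes for the respiratory chain and ATP synthase, 21 were higher and 0 lower (55.3% called, median 0.37). Without replicate 2 of the TAF14 strain, 30 were higher and 2 lower (median 0.49), and with any 1 other library left out between 17 and 20 were higher and 0 lower. ATP16 had 85.1, 96.1 and 95 CPM against 140.0, 143 and 151 (0.65 ± 0.07, adjusted p = 2.41e-05), and ATP3 had 186, 244 and 189 against 339, 298 and 328 (0.64 ± 0.10, adjusted p = 0.000351). Both encode subunits of the ATP synthase, and in both the W81A libraries were above all TAF14 libraries. ATP18 and ATP19 rose by 0.68 ± 0.07 and 0.63 ± 0.07. INH1, for the inhibitor of the ATP synthase, had 8.27, 20.1 and 6.07 against 17.1, 15.8 and 16.1, with replicate 2 above every W81A library, and was called without replicate 2 but not with it (0.48 ± 0.30, adjusted p = 0.244; 1.18 ± 0.15, adjusted p = 2.38e-05 without it). Mitochondrial ribosomal protein genes were 14 higher and 0 lower of 69 (20.3% called, where 15.8% of all genes were called higher and 33% in either direction). They were 8, 9 and 5 higher without TAF14 strain replicate 1, TAF14 strain replicate 3 and W81A strain replicate 2. Of the tricarboxylic acid and glyoxylate cycle genes, 5 were higher and 2 lower of 25 (28% called, below the 33% of all genes), or 10 and 2 without TAF14 strain replicate 2. KGD2, SDH3 and LSC1 rose (0.42 ± 0.07, 0.36 ± 0.08 and 0.32 ± 0.08), while CIT1, for citrate synthase, fell (-0.49 ± 0.09, 113, 140.0 and 109 CPM against 86.5, 93.2 and 79).

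Sugar uptake and storage genes were mixed. HXK2, for the main hexokinase in glucose, had 2423, 2054 and 2548 CPM against 1277, 1424 and 1236 (-0.84 ± 0.09, adjusted p = 1.99e-05), and the hexose transporter gene HXT4 had 40.7, 57.9 and 37.7 against 16.5, 20 and 20.5 (-1.26 ± 0.18). Glucokinase gene GLK1 rose (1.27 ± 0.19), but overlaps YCL042W and its reads are uncertain. Of 20 tested hexose transport and kinase genes, 3 were higher and 6 lower (45% called), and 3 were lower without W81A strain replicate 1. In glycogen metabolism, GSY1, for a glycogen synthase, and GLC3, for the branching enzyme, fell (-1.41 ± 0.22 and -1.12 ± 0.10), and GLG1, which primes glycogen, fell (-0.49 ± 0.08). GPH1, for glycogen phosphorylase, had 19.3, 77.9 and 18.6 CPM against 89.3, 68 and 96. Its replicate 2 lay within the W81A range, and its call depended on single libraries (1.11 ± 0.39, adjusted p = 0.0466; 2.16 ± 0.16, adjusted p = 1e-07 without replicate 2). It was lost when any library other than replicate 2 was left out. Aldehyde dehydrogenase genes ALD3, ALD4 and ALD6 rose (1.22 ± 0.21, 1.25 ± 0.23 and 0.43 ± 0.09, with ALD4 at 1.70 ± 0.16 without replicate 2), and ACS2, for acetyl-CoA synthetase on chromosome XII, fell (-0.70 ± 0.17; -0.38 ± 0.08 without replicate 2), with 669, 1199 and 693 CPM against 524, 496 and 554.

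High-affinity iron uptake genes rose and zinc transporter genes fell. FET3 and FTR1 encode the oxidase and the permease of high-affinity iron uptake. FET3 had 865, 948 and 882 CPM against 2137, 2534 and 2278 (1.37 ± 0.09, adjusted p = 3.11e-07), and FTR1 had 152, 176 and 146 against 412, 514 and 431 (1.52 ± 0.11, adjusted p = 1.18e-06). SIT1, for a siderophore transporter, had 89.9, 95.4 and 86 against 216, 312 and 221 (1.46 ± 0.13). FET4, for the low-affinity transporter, moved the other way, with 144, 149 and 143 against 51.3, 51.8 and 60.7 (-1.41 ± 0.09, adjusted p = 2.53e-07). None of the 4 had overlapping groups, and in the iron list 11 genes were higher and 5 lower of 28 (57.1% called), or 9 and 7 without replicate 2. Of 29 phosphate and zinc genes, 0 were higher and 11 lower (37.9% called, near the 33% of all genes, median -0.20), or 2 and 12 without replicate 2. Of all genes, 17.2% were called lower. The zinc transporter gene ZRT2, on chromosome XII, had 180.2, 218 and 196 CPM against 74.1, 76 and 74 (-1.41 ± 0.09; -1.33 ± 0.09 without replicate 2), and the vacuolar zinc transporter gene ZRC1 changed by -0.55 ± 0.07. ZRT1, for high-affinity zinc uptake, had 113, 31 and 131 against 27.3, 31.8 and 27.3 (-1.66 ± 0.38, adjusted p = 0.00517; -2.08 ± 0.15 without replicate 2). Replicate 2 of the TAF14 strain was within the W81A range for ZRT1, so the groups overlapped. Among vitamin genes, BIO2, for biotin synthase, had 71.9, 86.4 and 69.4 against 27.9, 27.3 and 27.7 (-1.46 ± 0.10), and SNZ1, of vitamin B6 synthesis, 29, 37.7 and 29.3 against 66, 79.6 and 80.6 (1.23 ± 0.12). Wild type had 83.5 ± 5.91 CPM of BIO2 and 205 ± 18.5 of SNZ1, so SNZ1 was below wild type in both strains.

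Sterol and lipid genes changed within their pathways in both directions. Among the rises, ERG25, for the C-4 sterol methyl oxidase, had 521, 524 and 581 CPM against 1156, 1114 and 1199.6 (1.09 ± 0.06, adjusted p = 1.53e-07), ERG3, for the C-5 desaturase on chromosome XII, rose by 0.78 ± 0.07 (0.83 ± 0.06 without replicate 2), and ERG1, for squalene epoxidase, by 0.56 ± 0.07. ERG28, for a scaffold of the pathway, fell (-0.82 ± 0.10), and in all 5 of 25 sterol genes were higher and 9 lower (56% called). OLE1, for the only fatty acid desaturase of yeast, had 1051, 1393 and 1057 CPM against 2066, 1972 and 2226 (0.84 ± 0.10, adjusted p = 7.34e-05), FAS1, for fatty acid synthase, rose by 0.49 ± 0.10, and ITR1, for an inositol transporter, by 0.45 ± 0.11. The deletion strain had 518 ± 14.8 CPM of OLE1 and wild type 1130.0 ± 96.6. In the fatty acid, inositol and phospholipid list 6 were higher and 2 lower of 25 (32% called, near the 33% of all genes), or 10 and 2 without TAF14 strain replicate 2 and 3 higher without TAF14 strain replicate 1. ELO3, on chromosome XII, fell (-0.58 ± 0.13; -0.33 ± 0.06 without replicate 2).

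The count of cell wall genes depended on replicate 2. With all libraries 8 of 34 were higher, 13 lower (61.8% called) and the median was -0.15. Without replicate 2, 17 of 35 were higher, 15 lower, and the median was 0.17. The direction of the list median turned with that 1 library. CWP2, for a mannoprotein of the wall, had 1265, 2027 and 1181 CPM against 3393, 3088 and 3549 (1.17 ± 0.16, adjusted p = 0.00017; 1.45 ± 0.09 without it), and GAS1, for a glucan-remodelling enzyme, had 2196, 2259 and 2263 against 3412, 3282 and 3765 (0.64 ± 0.08, adjusted p = 5.42e-05). SLT2, the kinase gene of the wall integrity pathway, fell (-0.75 ± 0.07, 145, 158 and 141 against 84.3, 94.3 and 85.7), as did the chitin synthase genes CHS2 and CHS3 (-0.75 ± 0.07 and -0.52 ± 0.06). PIR3, for a wall protein, had 5.55, 18.3 and 5.42 against 6.87, 8.68 and 9.49, so that replicate 2 was above every W81A library. Its change turned from -0.26 ± 0.38, adjusted p = 0.635, to 0.61 ± 0.20, adjusted p = 0.0303 without replicate 2. NCW2, on chromosome XII, had 79.7, 209 and 73.3 against 59, 67.4 and 63.9, a change of -0.93 ± 0.30, adjusted p = 0.0298, or -0.27 ± 0.10, adjusted p = 0.0379 without replicate 2. Its call with all libraries was lost when any 1 of the W81A libraries was left out.

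Genes of G1 and S phase and the histone genes were higher and several mitotic genes lower. Of 31 tested G1 and S phase genes, 20 were higher and 3 lower (74.2% called, median 0.37). IRR1 and MCD1, for subunits of the cohesin ring, had 109, 108 and 109 CPM against 198, 183 and 181 (0.79 ± 0.06, adjusted p = 1.99e-06) and 89.4, 93.7 and 85.7 against 136, 128 and 129.8 (0.55 ± 0.06, adjusted p = 2.07e-05). TOS6 and CDC21, the latter for thymidylate synthase, rose by 1.38 ± 0.15 and 0.63 ± 0.07. Every tested gene of the 11 in the histone list was higher with all libraries and 10 without replicate 2 (medians 0.60 and 0.72). HTB2, for histone H2B, had 323, 346 and 319 against 561, 538 and 583 (0.77 ± 0.06, adjusted p = 1.18e-06), and HHT2, for H3, 314, 323 and 270.4 against 514, 512 and 502 (0.75 ± 0.08, adjusted p = 2.91e-05). HHF1 and HHF2, for H4, rose by 0.60 ± 0.07 and 0.58 ± 0.07, but are near copies of each other and their reads cannot be assigned with certainty. Of 25 mitotic genes, 7 were higher and 11 lower (72% called). CDC20, for the activator of the anaphase-promoting complex, had 119, 103 and 119.9 against 63.1, 58 and 62 (-0.90 ± 0.07, adjusted p = 1.46e-06), the polo kinase gene CDC5 and the sirtuin gene HST3 fell (-0.64 ± 0.07 and -0.62 ± 0.07), and PDS1, for the securin that Cdc20 targets, rose (0.77 ± 0.08, 29.2, 33.7 and 31.3 against 55.7, 51.3 and 54.1).

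DNA damage and repair genes were counted because the study's title names the damage response. Of 70 tested, 21 were higher and 11 lower (45.7% called, median 0.10), and 23 and 11 without TAF14 strain replicate 2. The number lower was 5 and 4 without TAF14 strain replicates 1 and 3, and 7, 5 and 6 without W81A strain replicates 1, 2 and 3. RNR1, for the large subunit of ribonucleotide reductase, had 389.8, 452 and 379 CPM against 782, 735 and 813 (0.93 ± 0.07, adjusted p = 1.54e-06). RAD53, for the checkpoint kinase, had 24.6, 26.9 and 27.7 against 44.7, 43.5 and 41.7 (0.71 ± 0.08, adjusted p = 4.3e-05), and RTT107, for a scaffold of replication repair, 114, 105 and 111 against 184, 175 and 175 (0.69 ± 0.07, adjusted p = 1.03e-05). RAD16, of nucleotide excision repair, moved the other way, with 109, 94.6 and 103 against 50.8, 59.4 and 59.5 (-0.85 ± 0.08, adjusted p = 1.35e-05). None of these 4 genes had overlapping groups.

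The lists of genes for complexes that contain Taf14, and for other chromatin and transcription factors, were near or below the share of all genes called in either direction. Of 16 tested TFIID and TFIIF genes, 2 were higher and 2 lower (25% called, against 33% of all genes), and 1 was higher without TAF14 strain replicate 1, and 1 higher and 1 lower without W81A strain replicate 1 or 2. TAF4 had 99.3, 83 and 103 CPM against 120.1, 114 and 113 (0.29 ± 0.07, adjusted p = 0.0111), and TAF2 changed by -0.27 ± 0.06, though it overlaps YCR041W and its reads are uncertain. TAF1 and TAF9, at 0.22 ± 0.07 and -0.53 ± 0.15, were called with all libraries, but TAF1 was not called without TAF14 strain replicate 1 or 2 or W81A strain replicate 1 or 2, and TAF9 was not without W81A strain replicate 1 or 2. Among 38 SWI/SNF, RSC and INO80 genes, 9 were higher and 0 lower (23.7% called, where 15.8% of all genes were called higher). Without W81A strain replicates 1, 2 and 3, 5, 5 and 2 were higher, and 2 were lower without TAF14 strain replicate 1. The SWI/SNF subunit genes SNF12 and SWI3 rose by 0.35 ± 0.07 and 0.32 ± 0.06. SAS3, for the catalytic subunit of NuA3, a complex that holds Taf14, had 99.3, 89.4 and 95.1 CPM against 70.9, 67.4 and 65.5 (-0.48 ± 0.08, adjusted p = 0.000494), with 105 ± 7.89 CPM for wild type and 53.3 ± 4.74 for the deletion strain. Of 40 acetyltransferase and deacetylase genes, 6 were higher and 6 lower (30% called), and 3 were lower without W81A strain replicate 3. The acetyltransferase gene GCN5 and the NuA4 subunit gene YNG2 rose (0.27 ± 0.06 and 0.41 ± 0.08), as did SIR4 (0.37 ± 0.09). Of 37 RNA polymerase II and Mediator genes, 5 were higher and 5 lower (27% called). The number higher was 3, 2 and 3 without TAF14 strain replicate 1, W81A strain replicate 1 and W81A strain replicate 3. The number lower was 2 without TAF14 strain replicate 1 or 3 and 3 without W81A strain replicate 1, 2 or 3. In Mediator, the kinase module genes SSN2 and SSN8 fell (-0.33 ± 0.06 and -0.53 ± 0.11) and PGD1 rose (0.39 ± 0.10).

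Most aminoacyl-tRNA synthetase and cytosolic ribosomal protein genes were called lower, by small amounts. Of 21 aminoacyl-tRNA synthetase genes, 0 were higher, 16 lower and 5 not called (76.2% called, median -0.25). GLN4, which charges the glutamine tRNA, had 628, 576 and 668 CPM against 454, 447 and 481 (-0.44 ± 0.06, adjusted p = 0.000235), DED81, for asparagine, 1280.1, 1186 and 1317 against 944, 911 and 993 (-0.41 ± 0.06, adjusted p = 0.000246), and VAS1, for valine, 2112, 1939 and 2282 against 1555, 1591 and 1675 (-0.39 ± 0.07, adjusted p = 0.000915). Each W81A library was below every TAF14 library in these. Among 34 translation factor genes, 0 were higher, 15 lower and 19 not called (44.1% called, where 17.2% of all genes were called lower), with PAB1, for the poly(A)-binding protein, at -0.39 ± 0.06 and GCD1, of eIF2B, at -0.35 ± 0.08. Cytosolic ribosomal protein genes were 1 higher and 90 lower of 135 (67.4% called, median -0.30), and 59, 48 and 56 were lower without TAF14 strain replicate 3, W81A strain replicate 1 and W81A strain replicate 2. Ribosome biogenesis genes were 1 higher and 21 lower of 82, and 9 were lower without W81A strain replicate 2. In all 26.8% were called, where 33% of all genes were called in either direction and 17.2% lower. NSR1, a nucleolin-like gene, and MAK16 fell (-0.37 ± 0.06 and -0.26 ± 0.05).

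Of 28 tested Hsp70 and Hsp90 chaperone genes, 2 were higher, 14 lower and 12 not called (57.1% called, median -0.27). HSC82, for a constitutive Hsp90, had 3755, 2904 and 3928 CPM against 2406, 2288 and 2269 (-0.60 ± 0.10, adjusted p = 0.000593), and SSE1, for an Hsp110 exchange factor, 3489, 2642 and 3553 against 2029, 2037 and 2119.7 (-0.65 ± 0.10, adjusted p = 0.000332). STI1 and YDJ1, for cochaperones, fell (-0.70 ± 0.08 and -0.63 ± 0.06). SSA2, on chromosome XII, read -0.86 ± 0.07 (-0.86 ± 0.07 without replicate 2), but its near copies cover all of its length and its reads are uncertain. Of 34 proteasome genes, 0 were higher, 15 lower and 19 not called (44.1% called, median -0.17), and 22 were lower without TAF14 strain replicate 2. RPN12, for a lid subunit, had 124, 121 and 124 against 96.2, 99.3 and 94.3 (-0.35 ± 0.06). In the endoplasmic reticulum list 0 were higher and 1 lower of 21 (4.76% called). That gene was ERO1 (-0.26 ± 0.08, adjusted p = 0.0236), whose call was lost when any single library other than TAF14 strain replicate 2 was left out, and 2 genes were lower without that replicate. KAR2, for the resident Hsp70, had 625, 574 and 619 CPM against 564, 518 and 593 with overlapping groups (-0.12 ± 0.06, adjusted p = 0.166). The autophagy and vacuolar protease list was at the share of all genes called in either direction, with 7 higher and 1 lower of 24 (33.3% called). Of all genes, 15.8% were called higher. In it, PEP4, for proteinase A, had 270.5, 414 and 259 against 674, 632 and 661 (1.06 ± 0.14, adjusted p = 0.000109), PRC1 rose by 0.59 ± 0.15 and APE3 by 0.34 ± 0.06. The number higher was 4 without TAF14 strain replicate 3 or W81A strain replicate 2.

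Nucleotide synthesis genes were mostly lower. Of 28 tested, 1 was higher, 17 lower and 10 not called (64.3% called, median -0.31), or 3 and 18 without replicate 2. FUR1, for uracil salvage, had 332, 306 and 355 CPM against 190.2, 184 and 186 (-0.83 ± 0.06, adjusted p = 7.82e-07), and ADE6, of purine synthesis, 2025, 1763 and 1923 against 1264, 1237 and 1342 (-0.57 ± 0.07, adjusted p = 4.3e-05). URA4, for dihydroorotase on chromosome XII, had 834, 1108 and 817 against 392, 366 and 399.5 (-1.25 ± 0.11, adjusted p = 3.3e-06; -1.10 ± 0.07, adjusted p = 2.48e-08 without replicate 2). The gene called higher was URA2, for the enzyme of the first pyrimidine steps, with 2898, 3659.6 and 3014 against 5049.6, 5120.3 and 5374 (0.70 ± 0.09, adjusted p = 7.7e-05). MTD1, of one-carbon metabolism, fell (-0.79 ± 0.06, 208, 197 and 199 against 111, 116 and 124).

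Genes within 20 kb of a chromosome end were 12 higher and 38 lower of 139 (36% called, median -0.21). That share was near the 33% of all genes called in either direction, of which 17.2% of all genes were called lower. Meiosis and sporulation genes were 4 higher and 8 lower of 45 (26.7% called, below the 33% of all genes), and 5, 5 and 3 were lower without TAF14 strain replicate 3, W81A strain replicate 1 and W81A strain replicate 3. With TAF14 strain replicate 1 left out 2 were higher, and with replicate 2 left out 6. NDJ1, for a meiotic telomere protein, had 34.9, 12 and 31 CPM in the TAF14 strain and 4, 4.66 and 4.69 in the W81A strain (-2.53 ± 0.33, adjusted p = 0.000104), and levels of 14.1 ± 1.71 for wild type and 1.79 ± 0.215 for the deletion strain. SPO12 fell (-0.74 ± 0.09) and SPO14, for phospholipase D, rose (0.46 ± 0.08).

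**Figure D5:**
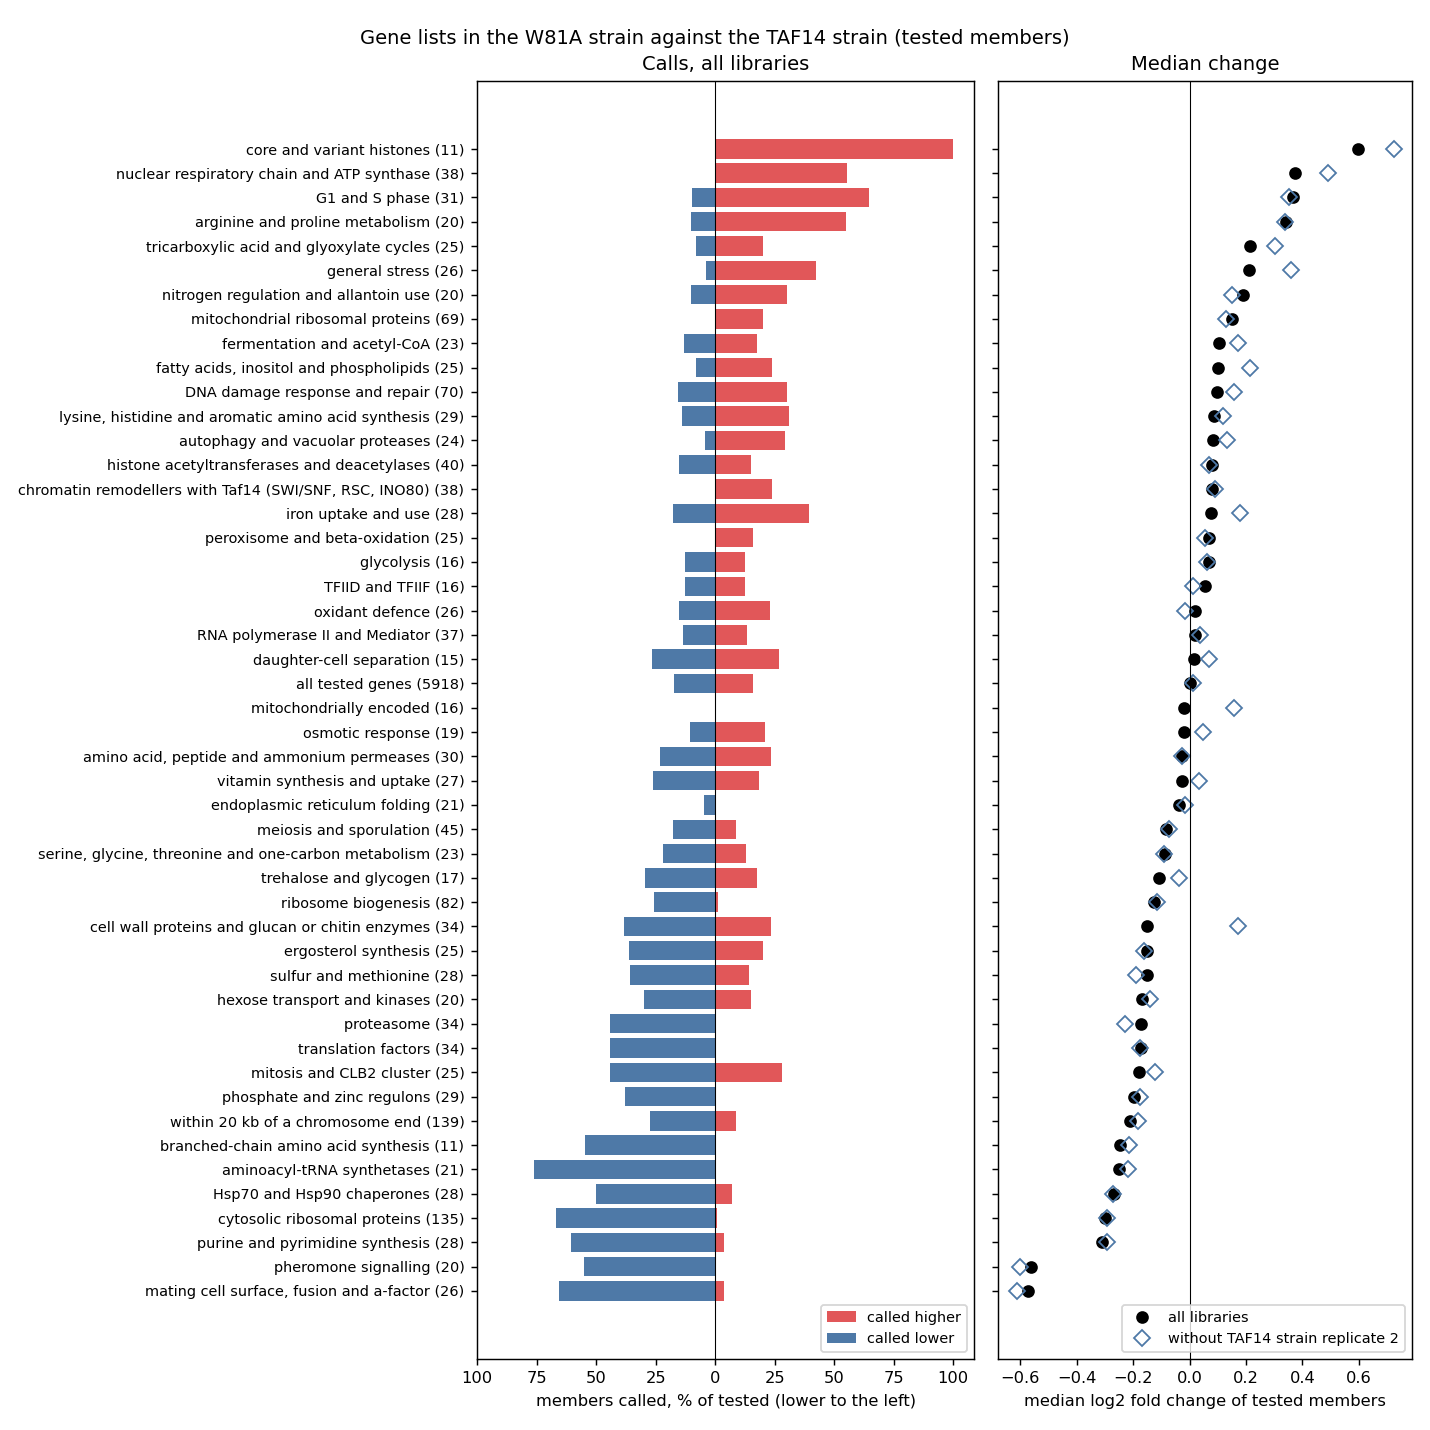
For each gene list, the share of tested members (number in brackets) called higher (red) and lower (blue) in the W81A strain than in the TAF14 strain (left), and the median log2 fold change with all libraries and without TAF14 strain replicate 2 (right). Histone, respiratory and G1 and S phase lists lie at the top, the mating lists at the bottom, and all 5918 tested genes had a median of 0.00046; the cell wall list moves from -0.15 to 0.17.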

How the data were processed

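The values were raw read counts per gene for 12 libraries, deposited by the authors as 1 table. Per the labels' protocols, total RNA was treated with DNase, depleted of rRNA (Ribo-Zero Gold) and made into stranded TruSeq libraries. Per the submitters' processing notes, the authors used TopHat2 2.0.14, SAMtools 0.1.19, HTSeq 0.6.1p1 and DESeq2 1.8.1 with build sacCer3. The strand setting and the annotation are not given in the sources used here.

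For each gene, edgeR 4.0.16 under R 4.3.3 gave a quasi-likelihood F-test on the counts, with trimmed-mean scaling, its default filter on low counts and 1 model of the 4 groups (12 libraries). The filter left 5918 genes and removed 774. A gene was called at a Benjamini-Hochberg adjusted p below 0.05 over all tested genes. The model left 8 residual degrees of freedom, and the biological coefficient of variation was 8.59%. Log2 fold changes are W81A strain minus TAF14 strain ± standard error, and errors on CPM are standard deviations, n = 3. The standard error was derived from the test, as the size of the log2 fold change divided by the square root of F. This fit was repeated without TAF14 strain replicate 2. A count of 0 allows up to 3 counts, at most 0.327 CPM, for counting error only. Libraries held 9007715 to 11662085 counts. Replicates of a group differed by more than sampling noise in every pair.

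Of 6692 entries, 6008 matched R64 by locus tag. The 684 others held 0.952% of counts and were not named. Near copies were sought with blastn 2.17.0+, at 95% identity over at least 30% of the length. Promoters are the 300 bases before each start codon, searched on both strands. No table of RefSeq protein or promoter sequences was used here.

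Genes named were TAF14, its neighbours and HIS3; the 15 largest rises and falls called in both fits, ranked without replicate 2, with a standard name, mean log2 CPM of at least 3 and groups that do not overlap; the 8 called genes at the same level or above that moved most between the fits; the 6 with the most reads in each direction that were called in both fits with a log2 change of at least 0.5 in size in both; the 4 members with the smallest p of each list; and cell type markers. Members and lists were chosen with earlier results of these data known, so list counts are descriptions without a test. Alternatives were DESeq2 1.42.0, limma-voom (limma 3.58.1), other scalings and filters, a robust dispersion, the 6 libraries alone, each library left out, chromosome XII left out, a replicate term and a 2-fold limit. A fit of 5 libraries alone was added after seeing the data. The pipeline was tested on simulated data. Some genes that the rule for named genes selects are not reported here.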

Additional observations from a re-analysis of the deposited data

How the results depend on the processing

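Over the alternatives that keep the call rule, the count of higher genes ran from 697 to 1244 (938 as reported) and that of lower genes from 749 to 1237 (1016 as reported). Leaving out 1 library gave 697 to 1062 higher and 749 to 1087 lower genes, and the 5 libraries alone, a fit chosen after seeing the data, gave 1244 and 1237. A 2-fold limit left 64 higher and 136 lower. Upper-quartile scaling gave 1028 higher and 896 lower, so 53.4% of calls were higher, against 48.0% as reported, and DESeq2 gave 852 and 1028. With the replicate number as a block the counts were 918 and 997. Same-numbered TAF14 and W81A libraries had correlations of 0.00133, -0.0396 and -0.0768 in their deviations from the group means. Same-numbered pairs of other groups ran from -0.219 to 0.309. No pairing by number was seen between the TAF14 and W81A libraries, but deviations from means of 3 libraries cannot exclude it. Of 3290 values for 207 named genes under alternatives, 3206 kept direction and call, 72 in 14 genes lost the call, 8 gained it and 4 changed sign: CYC8 read -0.0078 without TAF14 strain replicate 3 and -0.0284 without W81A strain replicate 3, TBF1 -0.0104 without W81A strain replicate 3, and PIR3 0.61 without TAF14 strain replicate 2. With 1 library left out, CYC8 ran from -0.0284 to 0.101, TBF1 from -0.0104 to 0.156 and PIR3 from -0.54 to 0.61. None of these was called as reported, and the cause was not tested. Of 1408 list counts, 131 moved by more than 1.5 times. Depth limits low genes: at 9007715 to 11662085 counts, 774 entries were not tested.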
